A study of Mus musculus with 8 samples.

Results

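Regions near olfactory receptor genes were taken from a table of 112137 H3K27ac regions of mouse embryonic stem cells as every region whose nearest gene is named Olfr followed by digits only, at any distance from the start site. There were 406 such regions at 257 genes, of 112137 regions at 19135 genes in all. H3K27ac, acetylation of histone H3 at lysine 27, marks active promoters and enhancers and was mapped by CUT&Tag, in which an antibody-tethered transposase cuts and tags the chromatin that carries the mark. The 8 libraries formed 4 groups of 2. Formative DKO cells lacked both MLL3 and MLL4, which methylate H3K4 chiefly at enhancers, and were collected 63 hours after LIF2i was withdrawn. Formative WT cells were of the R1 line and were collected at the same time. Naive DKO cells and naive WT cells were of the same genotypes in the naive state. No line or clone is named for the DKO cells, so that genotype and line cannot be told apart. Replicates were cultured, collected and prepared independently. The H3K27ac values are the authors' pooled log2(value + 1), 1 per region and group, so they have no SD and no replicate check. Only formative WT against naive WT has a replicated test, DiffBind's, in the authors' deposited table. The depth of the libraries is unknown, and the signal at Kmt2c and Kmt2d, which encode MLL3 and MLL4, does not check the deletions.

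Olfactory receptors are G protein-coupled receptors that bind odorants at the cilia of olfactory sensory neurons. They form the largest gene family of the mouse, lie in dense clusters on many chromosomes, and are each expressed in a small share of the neurons, where as a rule 1 receptor allele is chosen per cell. In other tissues the clusters are known to be packed as heterochromatin and to be silent, which makes them a common reference for closed chromatin in stem cells.

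The sequences behind the main patterns are shown first, 5′ to 3′ on the + strand of the RefSeq genome GRCm38.p6, which is the build mm10. The region near Olfr1311 at chr2:112026190-112027593 had the largest rise among the members named here, and the 200 bases at its centre, chr2:112026791-112026990, are shown. The region near Olfr153 at chr2:87534378-87536663 had the largest fall among them, and chr2:87535420-87535619 is shown. The stretches of 80 bases at chr2:87906405-87906484 near Olfr1154 and chr11:51024095-51024174 near Olfr54 stand for the 2 largest sets of members that share their sequence. In the first pair, capitals mark bases that this genome does not soft-mask as repetitive; the second pair is printed in lower case throughout.
Olfr1311: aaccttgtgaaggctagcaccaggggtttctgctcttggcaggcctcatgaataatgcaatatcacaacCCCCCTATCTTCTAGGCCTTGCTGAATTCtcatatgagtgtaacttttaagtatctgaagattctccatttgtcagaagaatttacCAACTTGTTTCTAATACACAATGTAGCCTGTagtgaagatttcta
Olfr153: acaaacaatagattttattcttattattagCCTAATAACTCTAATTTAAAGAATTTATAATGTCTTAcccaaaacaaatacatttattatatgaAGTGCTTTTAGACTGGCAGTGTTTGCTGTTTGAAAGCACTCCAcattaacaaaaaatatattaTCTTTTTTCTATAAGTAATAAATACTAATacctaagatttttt
Olfr1154: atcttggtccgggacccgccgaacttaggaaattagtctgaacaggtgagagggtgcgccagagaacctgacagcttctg
Olfr54: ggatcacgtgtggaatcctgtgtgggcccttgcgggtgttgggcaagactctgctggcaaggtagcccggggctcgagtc

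H3K27ac regions were sparse around these genes. Of 1110 olfactory receptor genes with a curated transcript in RefSeq, 256 (23.1%) had a region assigned to them, against 18610 of 25070 other genes (74.2%). The parts of the genome nearest to a receptor start site covered 33.9 Mb, 1.24% of the chromosomes' length, and held 12.5 regions per Mb, against 41.1 per Mb over the genome. Chromosomes 7, 2 and 9 held most members, with 71, 67 and 61 regions. By position, 275 members lay between 2 receptor genes of a cluster, 126 at a cluster's edge and 5 outside. By the annotation in the authors' deposited table, 352 were intergenic (86.7%, against 27.1% of all regions), 27 lay in an intron, 15 in an exon, 6 at a promoter, 5 at a transcription termination site and 1 in a 3′ UTR. Their median distance from the start site was 11951 bp, with a range of 185 to 552581 bp, and 16 lay within 1 kb. Nearest does not mean within the gene: 19 members overlapped a receptor gene, 54 overlapped another RefSeq gene and 333 overlapped none.

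The members were otherwise of ordinary size and strength. Their median width was 1026 bp, against 1082 bp for all regions, and ranged from 346 to 8732 bp. DiffBind's concentration, the log2 of the mean read level over the 4 WT libraries in the authors' deposited table, had a median of 5.92, against 6.01 over all regions. The strongest was the intergenic region near Olfr874 at chr9:37748735-37753942, with a concentration of 10.5 in the authors' deposited table. Its levels were 6.04 in formative DKO, 7.01 in formative WT, 6.24 in naive DKO and 8.50 in naive WT cells, so that both WT groups were above the DKO group of the same state. The silence of the genes themselves could be checked only in part. An RNA fold, from libraries outside this series, is listed in the authors' deposited table for 4 of the 257 genes (1.56%), namely Olfr1423, Olfr373, Olfr374 and Olfr986, against 9781 of all 19135 genes (51.1%). Why the other genes have none is not given in the sources used here. By the authors' deposited table, RNA of Olfr1423 had a log2 fold of 1.49 for formative WT over naive WT and -0.65 for formative DKO over naive DKO. RNA of Olfr374, by the authors' deposited table, had -2.25 for naive DKO over naive WT and -2.01 for formative DKO over formative WT. Olfr986, by the authors' deposited table, had RNA folds of -1.48 for formative WT over naive WT, -1.34 for formative DKO over naive DKO, 0.14 for naive DKO over naive WT and 0.28 for formative DKO over formative WT. Those of Olfr373 in the authors' deposited table were 0.78, 0.54, -1.02 and -1.26 in the same order, so the 4 genes shared no direction.

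Across the 4 groups, median acetylation near receptor genes was lowest in DKO cells. The difference between a region's highest and lowest group had a median of 2.62 log2 units over the members, against 2.06 over all regions, 2.69 over intergenic regions beyond 100 kb from any start site (gene deserts) and 2.60 over regions of the vomeronasal, trace amine and taste receptors, so it was close to that of gene deserts and of other chemosensory receptors. Over the 351 members above 0 in all groups, the median level was 6.63 in formative DKO, 8.10 in formative WT, 6.99 in naive DKO and 7.85 in naive WT cells. Over all 105643 such regions the medians were 7.27, 8.03, 7.29 and 7.58 in the same order of groups. The deposited level falls with about the square of a region's width, so the sets' levels are not compared with each other, only groups within a region. The highest of the 4 levels was in formative WT cells for 178 members (50.7%), in naive WT for 148 (42.2%), in naive DKO for 16 (4.56%) and in formative DKO for 9 (2.56%). Over all regions those shares were 47.9% for formative WT, 25.7% for naive WT, 15.1% for naive DKO and 11.3% for formative DKO. A WT group was thus highest at most members. Naive WT was highest in 44.8% of gene-desert regions and 40.2% of other chemosensory receptor regions, close to the members' share.

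**Figure D1:**
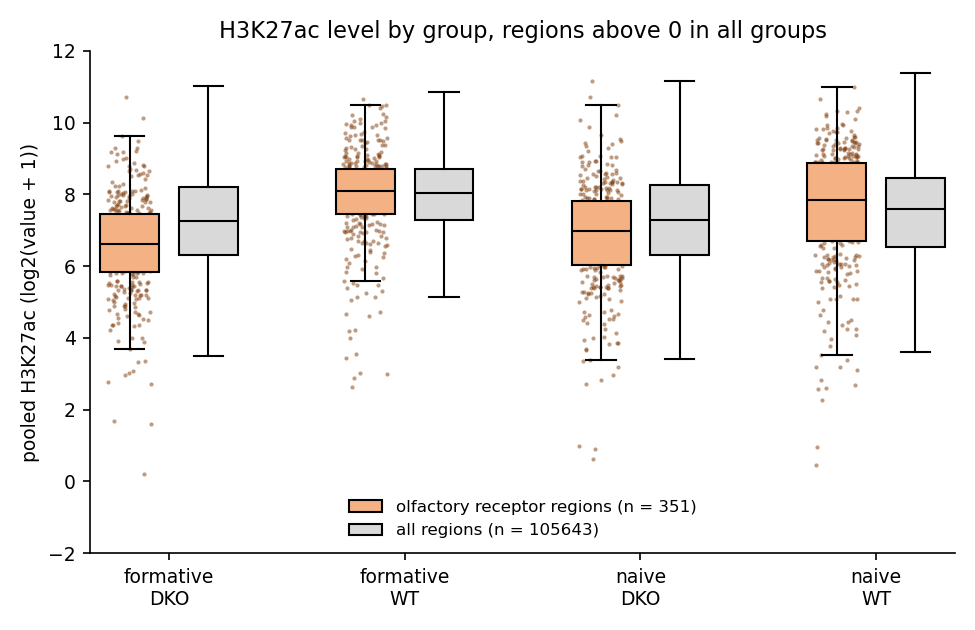
Pooled H3K27ac level, log2(value + 1), in each group for the 351 olfactory receptor regions (orange boxes and points) and all 105643 regions (grey boxes) above 0 in all groups. Boxes span the quartiles with the median as a line and whiskers reach 1.5 times the box height; the receptor medians are 6.63 and 6.99 in the DKO groups and 8.10 and 7.85 in the WT groups.

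Taken per gene, as the median over its regions and then the difference between its highest and its lowest group, the spread had a median of 2.49 log2 units over 225 receptor genes. It was 1.74 over all 18682 genes. Most receptor genes rest on a single region (163 of 225, 72.4%, against 22.8% of all genes), and a median over fewer regions varies more; the part of this in the spread was not tested. Olfr543, with 5 regions, was the steadiest, with a spread of 0.49. Olfr541, with 1 region, had the largest spread, 8.96: its levels were 5.35 in formative DKO, 9.86 in formative WT, 0.90 in naive DKO and 0.96 in naive WT cells. Only 10 receptor genes (4.44%) stayed within a spread of 1, against 19.1% of all genes. A further 55 members (13.5%, against 5.79% of all regions) were listed at 0 in at least 1 group: 25 in formative DKO, 4 in formative WT, 15 in naive DKO and 22 in naive WT. These were narrow and weak regions, with a median width of 630 bp. How the regions of the table were chosen is not given in the sources used here.

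Between the states in WT cells, receptor regions changed in both directions about as often as other intergenic regions. By DiffBind's adjusted p under 0.05 in the authors' deposited table, 92 members rose (22.7%) and 86 fell (21.2%) in formative WT against naive WT. Over all regions 20.8% rose and 15.8% fell, over the other intergenic regions 20.1% rose and 22.4% fell, and over gene deserts 21.5% rose and 22.8% fell, by the same DiffBind columns of the authors' deposited table. When the other regions were weighted to the members' concentration and intergenic share, 20.6% rose and 22.3% fell, so neither share stood apart from that background. The same DiffBind columns of the authors' deposited table gave a median log2 fold of 3.99 for the members that rose and -2.54 for those that fell.

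The members that rose were mostly weak regions and those that fell mostly strong ones. In the authors' deposited table, the members that rose had a median concentration of 4.98 and width of 796 bp, and those that fell 7.22 and 1344 bp. In the lowest of 5 equal bins of all regions by concentration, 53 of 112 members rose and 3 fell by DiffBind in the authors' deposited table (47.3% and 2.68%, against 37.9% and 1.96% of all regions of that bin). In the highest bin, 10 of 82 rose and 44 fell (12.2% and 53.7%, against 15.3% and 44.8%). Signal strength and direction thus moved together near receptor genes and over the table alike, and the part of the choice of regions in this was not tested.

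**Figure D2:**
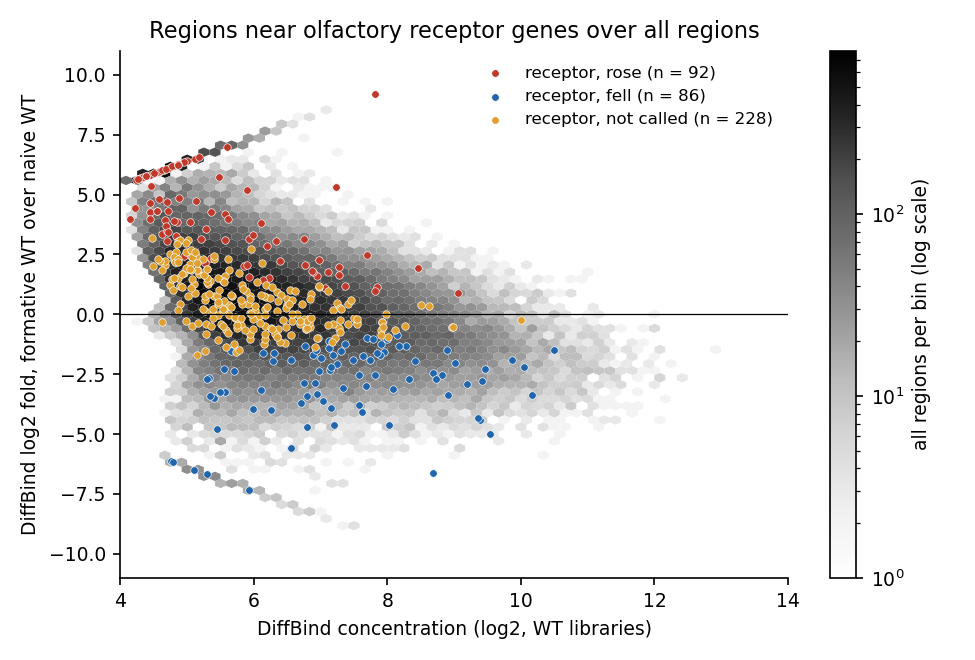
DiffBind log2 fold for formative WT over naive WT against DiffBind concentration in the authors' deposited table, for the 406 olfactory receptor regions (points) over all 112137 regions (grey bins, log colour scale). The 92 receptor regions that rose lie mostly at low concentration and the 86 that fell mostly at high concentration; the straight bands at the outer edges are regions with almost no signal in 1 of the 2 states.

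The strongest evidence for a rise was near Olfr491, at chr7:108304616-108306629. Its levels were 5.56 in formative DKO, 8.24 in formative WT, 5.61 in naive DKO and 3.20 in naive WT cells, so that formative WT stood alone at the top. By DiffBind in the authors' deposited table its log2 fold was 5.30, adjusted p = 1.01e-18. The region near Olfr1311 shown above had 5.27 in formative DKO, 10.0 in formative WT and 5.80 in naive DKO cells and was listed at 0 in naive WT cells. By DiffBind in the authors' deposited table its log2 fold was 9.21, adjusted p = 3.09e-16. Near Olfr1058, at chr2:86393933-86395652, the levels were 5.97 in formative DKO, 9.08 in formative WT, 6.90 in naive DKO and 6.66 in naive WT cells, and by DiffBind in the authors' deposited table its log2 fold was 2.47, adjusted p = 1.33e-12. In each of these 3 regions formative WT was the highest group, and the 2 DKO groups differed by less than 1 log2 unit from each other. The other named rises, near Olfr161, Olfr576, Olfr1314, Olfr140 and Olfr893, had DiffBind log2 folds of 1.94 to 6.99 in the authors' deposited table.

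Of the 4 falls with the smallest adjusted p, 3 lay on chromosome 17. There 14 of 29 members fell and 3 rose by DiffBind in the authors' deposited table. For comparison, DiffBind called 15.8% of all regions fallen and 20.8% risen in the authors' deposited table. The 14 fallen members were strong, with a median concentration of 7.65 in the authors' deposited table. That value lies in the top bin of the 5, of which DiffBind called 44.8% of all regions fallen in the authors' deposited table. The part of signal strength in the chromosome 17 counts was not tested. All 4 regions near Olfr90 fell. The strongest, at chr17:37076637-37082945, had levels of 5.11 in formative DKO, 3.01 in formative WT, 6.79 in naive DKO and 7.17 in naive WT cells. By DiffBind in the authors' deposited table its log2 fold was -4.43, adjusted p = 1.14e-64. The other 3 overlap Gabbr1, which encodes a subunit of the GABA-B receptor and is no olfactory receptor. Farther along, 7 of 8 regions near Olfr761 and 2 of 5 near Olfr129 fell and none of these 13 rose, by DiffBind in the authors' deposited table. The Olfr761 region at chr17:37989257-37993185 had levels of 5.08 in formative DKO, 3.98 in formative WT, 7.23 in naive DKO and 8.71 in naive WT cells. By DiffBind in the authors' deposited table its log2 fold was -4.98, adjusted p = 1.27e-59. Both naive groups were above both formative groups there, as they were at the named Olfr90 region.

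The fall near Olfr153 on chromosome 2, whose sequence is shown above, was the largest of those named. Its levels were 5.21 in formative DKO, 2.99 in formative WT, 6.51 in naive DKO and 9.15 in naive WT cells, and by DiffBind in the authors' deposited table its log2 fold was -6.61, adjusted p = 1.52e-53. Of the 8 named falls, near Olfr90, Olfr761, Olfr153, Olfr129, Olfr1370, Olfr24, Olfr976 and Olfr820, formative WT was below naive WT by 2.57 to 6.16 log2 units in the pooled levels. The Olfr1370 region lies in an intron of Aoah, which encodes acyloxyacyl hydrolase, an enzyme that inactivates bacterial lipopolysaccharide.

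At the receptor start sites, rises predominated. Of the 16 members within 1 kb of a start site, 11 rose and none fell by DiffBind in the authors' deposited table (68.8%, against 20.8% of all regions that rose). Of the 9256 other regions within 1 kb of a start site, 10.7% rose and 26.1% fell by the same DiffBind columns of the authors' deposited table. These members were weak, with a median concentration of 4.86 in the authors' deposited table. In the lowest of the 5 bins, 8 of 10 rose, against 33.6% of 746 other regions within 1 kb. All 16 had their highest level in formative WT cells, against 206 of the 390 members farther away (52.8%) and 63.5% of those 746 regions. Over the whole table, 0.151% of regions were listed at 0 in formative WT, against 2.92% in naive WT, 1.87% in naive DKO and 1.79% in formative DKO cells. The part of the choice of regions in these counts was not tested. This set of 16 regions was looked at after the values were known and has no test of its own.

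The 16 regions had a median level of 7.00 in formative DKO (0 to 8.44), 8.97 in formative WT (7.45 to 10.5), 6.84 in naive DKO (3.36 to 9.20) and 5.24 in naive WT cells (0 to 8.32). Thus formative WT was at least 2-fold above formative DKO in 14 of 16, while naive DKO was above naive WT in 12 of 16. Weak regions did likewise: in the lowest concentration bin, 63.1% of all regions were at least 2-fold lower in formative DKO than in formative WT cells, and the median for naive DKO over naive WT was 0.52. At Olfr1028, where the region at chr2:85950839-85952009 is annotated as exonic, the levels were 6.80 in formative DKO, 8.26 in formative WT, 3.36 in naive DKO and 2.83 in naive WT cells. At its neighbour Olfr1029 they were 7.19, 8.93, 7.75 and 3.53 in the same order of groups. The DiffBind log2 folds in the authors' deposited table were 5.71 and 5.72, adjusted p = 1.03e-06 for Olfr1028 and 0.000856 for Olfr1029. Of the stretches of 20 bases, 90.1% of those in the Olfr1029 region and 46.6% of those in the Olfr1028 region occur in the other, so reads of these paralogs may not be told apart. At Olfr368, where the region lies 985 bp before the start, the levels were 2.97 in formative DKO, 8.79 in formative WT, 6.55 in naive DKO and 0.46 in naive WT cells. At Olfr769 they were 8.44 in formative DKO, 10.5 in formative WT, 8.64 in naive DKO and 5.07 in naive WT cells.

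The region at Olfr1253, chr2:89752267-89752939, spans the start site. Its levels were 7.40 in formative DKO, 9.0 in formative WT and 6.35 in naive DKO cells, and it was listed at 0 in naive WT cells. It rose with a DiffBind adjusted p of 0.000242 in the authors' deposited table. The 250 bases before its RefSeq start, on the - strand at chr2:89752827-89753076 of GRCm38.p6, are shown with capitals for the 113 bases that the region covers. RefSeq promoters were at hand for 11 of the 16 genes, and a region reached into the promoter of 3, Olfr1253, Olfr52 and Olfr1062.
Olfr1253: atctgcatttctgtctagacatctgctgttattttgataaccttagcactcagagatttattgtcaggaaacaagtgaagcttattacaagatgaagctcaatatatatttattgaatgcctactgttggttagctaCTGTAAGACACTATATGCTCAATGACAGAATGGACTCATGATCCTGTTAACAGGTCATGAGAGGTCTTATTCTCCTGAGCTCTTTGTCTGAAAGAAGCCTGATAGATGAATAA

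**Figure D3:**
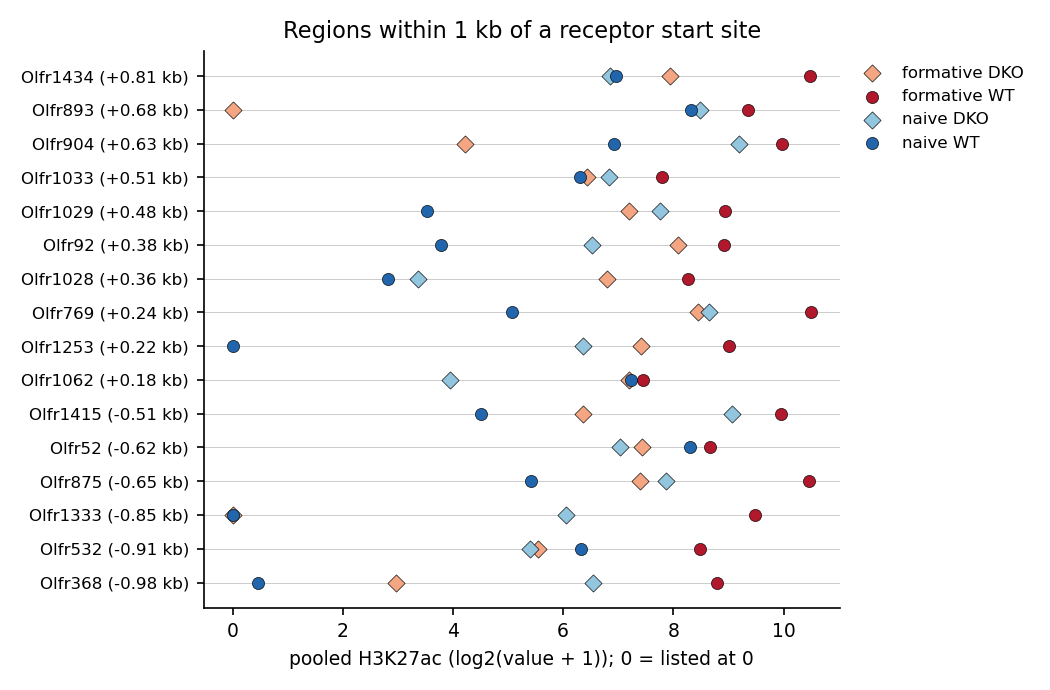
Pooled H3K27ac level, log2(value + 1), in the 4 groups for the 16 regions within 1 kb of a receptor start site, 1 region per line, with the distance from the start in kb beside the gene. Formative WT (red circles) is the highest group on every line, from 7.45 to 10.5; a value of 0 is a region listed at 0.

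Without MLL3 and MLL4, more members were lower than higher in the formative state, though the median over genes, -0.24, was 0.04 when groups were scaled to the sum over all regions. In formative DKO against naive DKO, 46 of 351 members were at least 2-fold higher (13.1%, against 16.6% of all regions) and 95 at least 2-fold lower (27.1%, against 17.9%). The median log2 difference was -0.30 over the members and -0.07 over all regions. Weighted to the members' concentration and intergenic share, 23.7% of other regions were 2-fold lower, closer to the members. In the same pooled values, formative WT against naive WT gave 123 members higher (35.0%, against 38.1%) and 92 lower (26.2%, against 18.9%), with a median of 0.15. The WT median over genes, 0.33, was -0.15 under median centring and under quantile normalization. The 63 members above 0 in all groups that had risen in WT cells by DiffBind in the authors' deposited table had a median difference of 3.25 in WT and -0.05 in DKO cells between formative and naive. The 80 that had fallen had -2.52 in WT and -0.89 in DKO cells. All regions that rose showed 2.59 in WT and 0.31 in DKO cells, and all that fell -2.0 in WT and -0.60 in DKO cells. These were chosen by the WT change, so the smaller DKO value is a description and not a test.

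Single regions show the range. Near Olfr576, at chr7:102966917-102968056, the levels were 7.68 in formative DKO, 8.79 in formative WT, 2.97 in naive DKO and 5.17 in naive WT cells, so both formative groups were above both naive groups. Near Olfr510, at chr7:108662196-108663195, the levels were 6.28 in formative DKO, 5.46 in formative WT, 9.35 in naive DKO and 9.32 in naive WT cells, and the order was the opposite in both genotypes. Near Olfr923 they were 5.83 in formative DKO, 8.10 in formative WT, 8.93 in naive DKO and 9.74 in naive WT cells.

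In the naive state, the members were lower without MLL3 and MLL4 more often than all regions, and about as often as other intergenic regions. In naive DKO against naive WT, 45 of 351 members were at least 2-fold higher (12.8%, against 19.2% of all regions) and 155 at least 2-fold lower (44.2%, against 26.3%). Weighted to the members' concentration and intergenic share, 39.9% of other regions were 2-fold lower, and of other intergenic regions 41.6%. The median log2 difference was -0.83, against -0.10 over all regions, -0.67 over other intergenic regions and -0.95 over gene deserts. Over regions near the other chemosensory receptors, the vomeronasal, trace amine and taste receptors, it was -0.93, with 46.4% at least 2-fold lower. Per gene the median was -0.88 over 225 receptor genes, and 28 lay 1 log2 unit or more above 0 (12.4%, against 13.4% of all genes) and 100 as far below (44.4%, against 20.9%). Receptor regions thus resembled gene deserts and other chemosensory receptor clusters more than the average region.

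Among members of above-median concentration, the largest difference was near Olfr859, at chr9:19801172-19802328, with 4.36 in formative DKO, 5.98 in formative WT, 4.00 in naive DKO and 9.85 in naive WT cells. Naive WT stood far above the other groups there. Near Olfr697, at chr7:106744582-106747203, the levels were 4.67 in formative DKO, 8.11 in formative WT, 3.83 in naive DKO and 8.49 in naive WT cells, so both WT groups were above both DKO groups by more than 3 log2 units. Near Olfr901 they were 6.32 in formative DKO, 5.91 in formative WT, 5.50 in naive DKO and 9.92 in naive WT cells. In the other direction, the Olfr491 region described above was 2.41 log2 units higher in naive DKO than in naive WT cells, and that near Olfr910 was 2.07 higher.

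The median difference between genotypes was larger in the formative state as deposited, but not under every scaling. Over receptor genes it was -1.46 in formative and -0.88 in naive cells for DKO over WT, against -0.83 and -0.78 under median centring and -0.67 and -0.68 under quantile normalization. In formative DKO against formative WT, 24 of 351 members were at least 2-fold higher (6.84%, against 11.2% of all regions) and 209 at least 2-fold lower (59.5%, against 39.3%). The median log2 difference was -1.34 over the members, -0.63 over all regions, -1.0 over other intergenic regions, -1.27 over gene deserts and -1.35 over the other chemosensory receptor regions. Weighted to the members' concentration and intergenic share, 47.7% of the other regions were 2-fold lower, against 59.5% of the members. Per gene, 7 were higher (3.11%, against 7.09% of all genes) and 141 lower (62.7%, against 38.8%) by 2-fold or more, with a median of -1.46, against -0.67 over all genes. Since the 2 comparisons of genotype share no group with each other, their values stand side by side, and the difference between them was not tested. Of the members that had risen in WT cells by DiffBind in the authors' deposited table, 51 of 63 were at least 2-fold lower in formative DKO than in formative WT cells (81.0%), against 61.0% of all regions that rose. Of those that had fallen, 20 of 80 were at least 2-fold higher (25.0%) and 27 lower (33.8%). Of all regions that fell, 37.8% were higher and 13.4% lower, so the balance ran the other way. Both the choice of these members and this comparison use formative WT, so the counts are a description.

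Near Olfr478, at chr7:108012946-108013765, the levels were 2.73 in formative DKO, 7.91 in formative WT, 5.12 in naive DKO and 9.46 in naive WT cells. Near Olfr698, at chr7:106760508-106761784, they were 3.07 in formative DKO, 8.07 in formative WT, 5.61 in naive DKO and 8.40 in naive WT cells. Each WT group was above the DKO group of its state at both regions. Named regions in the opposite direction had fallen in formative WT cells. Near Olfr10, at chr11:49308253-49309368, the levels were 8.81 in formative DKO, 4.22 in formative WT, 8.51 in naive DKO and 9.39 in naive WT cells, so formative WT alone was low. The region near Olfr976, at chr9:39975867-39977481, also had formative WT as its lowest group, with 8.10 in formative DKO, 5.24 in formative WT, 10.2 in naive DKO and 9.81 in naive WT cells.

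**Figure D4:**
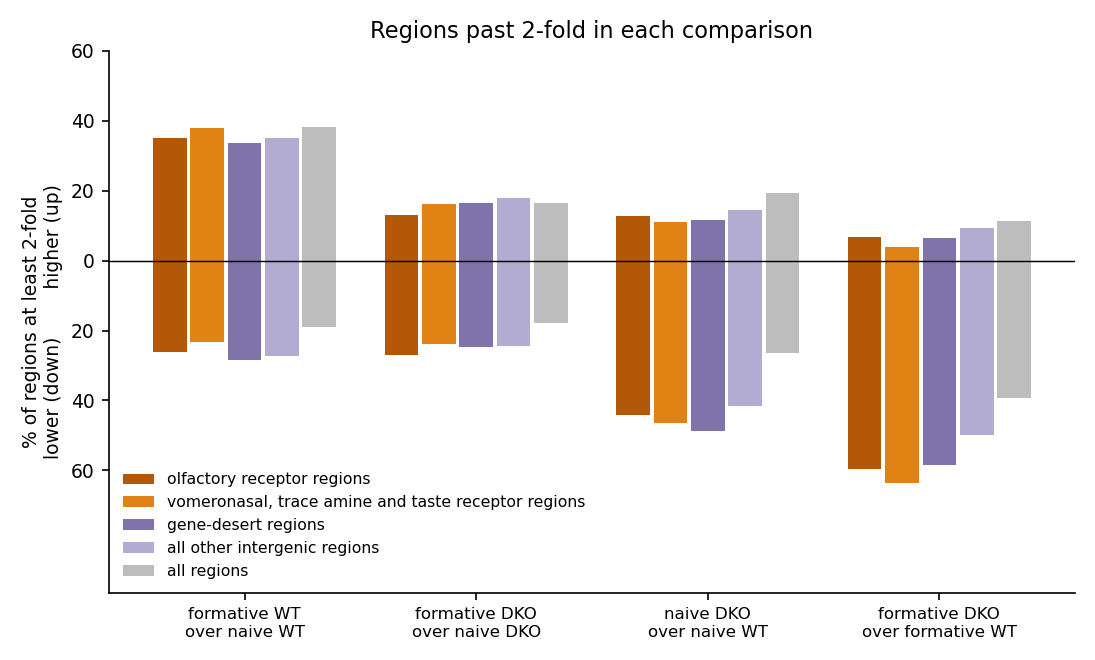
Share of regions at least 2-fold higher (bars up) and at least 2-fold lower (bars down) in each comparison of pooled H3K27ac, for the olfactory receptor regions and 4 sets beside them, all above 0 in all groups. The receptor regions are lower in 44.2% for naive DKO over naive WT and 59.5% for formative DKO over formative WT, against 26.3% and 39.3% of all regions.

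H3K4me1, the monomethyl mark that MLL3 and MLL4 deposit at enhancers, was compared through the log2 folds of the authors' deposited table, which come from libraries outside this series. In formative WT against naive WT, 65 of 406 members were at least 2-fold higher in H3K4me1 (16.0%, against 5.88% of all regions) and 31 lower (7.64%, against 15.5%) in the authors' deposited table. The median was 0.19 near receptor genes and -0.15 over all regions. Other chemosensory receptor regions were close to the members, with 17.3% higher and 6.12% lower in the authors' deposited table. Gene deserts had 14.8% higher and 10.6% lower there. In formative DKO against naive DKO, 37 were higher (9.11%, against 2.75%) and 22 lower (5.42%, against 2.93%) in the authors' deposited table. In naive DKO against naive WT, 34 were higher (8.37%, against 5.03%) and 119 lower (29.3%, against 18.7%) in the authors' deposited table. The median of this comparison was -0.31 near receptor genes and -0.30 over all regions. The members were thus more widely spread in both directions, with a like median. In formative DKO against formative WT, 35 were higher (8.62%, against 10.5%) and 132 lower (32.5%, against 16.0%), with a median of -0.39 near receptor genes and -0.02 over all regions in the authors' deposited table. The shares lower in DKO were again close to those of gene deserts, 27.9% in naive and 30.6% in formative cells in the authors' deposited table. At the 16 regions within 1 kb of a start site the authors' deposited table gave a median H3K4me1 fold of 0.83 for formative WT over naive WT and -0.73 for formative DKO over formative WT. Of the 16, 5 and 11 were below 0 in these comparisons. The median was 0.03 for formative DKO over naive DKO, with 8 below 0, and 0.31 for naive DKO over naive WT, with 6 below 0.

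Much of the sequence under these regions is repeated. The soft-masked share had a median of 58.7% near receptor genes, against 19.1% over all regions, 28.8% over other intergenic regions and 40.9% over gene deserts, and the G+C share a median of 46.3%, against 48.0% over all regions. At the members within 1 kb of a start site the soft-masked median was 7.11%. Of the stretches of 20 bases in a member, a median of 37.8% also occurred in another region of the table, on either strand, against 4.48% over all regions. At least 50% of the stretches were shared in 167 members (41.1%, against 7.32% of all regions, 36.0% of gene deserts and 42.8% of other chemosensory receptor regions). When pairs of members were joined that share at least 50% of the stretches of the one with fewer stretches, 107 of 406 fell into 14 families. The sources used here do not say how the reads of near-identical copies were placed. The copies of a family are not independent, and each may hold reads of the others.

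The largest family, shown above by its stretch near Olfr1154, had 37 copies near 36 genes on 10 chromosomes. A median of 98.7% of each copy was soft-masked, and 30 copies held the 80 bases without a change. None of the 37 rose and 3 fell between formative WT and naive WT by DiffBind in the authors' deposited table, where 20.8% of all regions rose and 15.8% fell. The median level was 6.59 in formative DKO, 7.75 in formative WT, 6.85 in naive DKO and 8.30 in naive WT cells. As deposited, all 37 were lower in DKO than in WT cells in both states. The median log2 difference was -1.52 for naive DKO over naive WT and -1.42 for formative DKO over formative WT. The copy near Olfr1154 itself had 7.15 in formative DKO, 7.57 in formative WT, 7.11 in naive DKO and 7.79 in naive WT cells, with a smaller difference than most copies.

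The second family, shown by its stretch near Olfr54, had 32 copies near 30 genes on 11 chromosomes. Only 1 copy holds the 80 bases without a change, though all hold at least 50% of their stretches of 20 bases. Of the 32 copies, 14 fell and none rose between formative WT and naive WT by DiffBind in the authors' deposited table. Over all regions 15.8% fell and 20.8% rose. The median level was 6.19 in formative DKO, 8.10 in formative WT, 6.52 in naive DKO and 8.94 in naive WT cells. In naive cells all 32 copies were lower in DKO than in WT, with a median of -2.43, and in formative cells 30 of 32, with a median of -1.88. Near Olfr54 the levels were 7.13 in formative DKO, 8.36 in formative WT, 6.99 in naive DKO and 9.57 in naive WT cells. The direction of the 2 medians in both families was the same under every scaling of the groups tried, with -0.60 for the first family in formative cells under quantile normalization as the value nearest 0. The counts of copies were not. In formative cells, 30 of 37 copies of the first family were lower in DKO under median centring and 27 under quantile normalization. For the second family these counts were 25 and 23 of 32.

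H3K4me1 did not move with acetylation in these families. In the authors' deposited table, the median H3K4me1 log2 fold of the first family was 0.23 for naive DKO over naive WT and 0.26 for formative DKO over formative WT. For the second family the H3K4me1 medians in the authors' deposited table were 0.00 and -0.16 in the same order. Lower acetylation in DKO cells was also seen in copies elsewhere. Among the other regions of the table that hold at least 50% of the stretches of the first family's 80 bases, 1523 on 20 chromosomes, the H3K27ac medians were -1.49 in naive and -1.27 in formative cells for DKO over WT. For the second family, 1455 other regions had -2.61 in naive and -1.65 in formative cells. By DiffBind in the authors' deposited table, 50.4% of these 1455 fell and 2.06% rose in formative WT against naive WT. Of the 1523 other regions of the first family, 14.5% fell and 0.328% rose. The families carried part of the members' share that was lower in naive cells. Without them, 34.8% of 282 members were at least 2-fold lower in naive DKO than in naive WT cells, against 44.2% with them. Their copies were not left out of the other regions. Where under 50% of a region's stretches were shared, 35.9% of members and 38.4% of other intergenic regions were lower by as much.

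**Figure D5:**
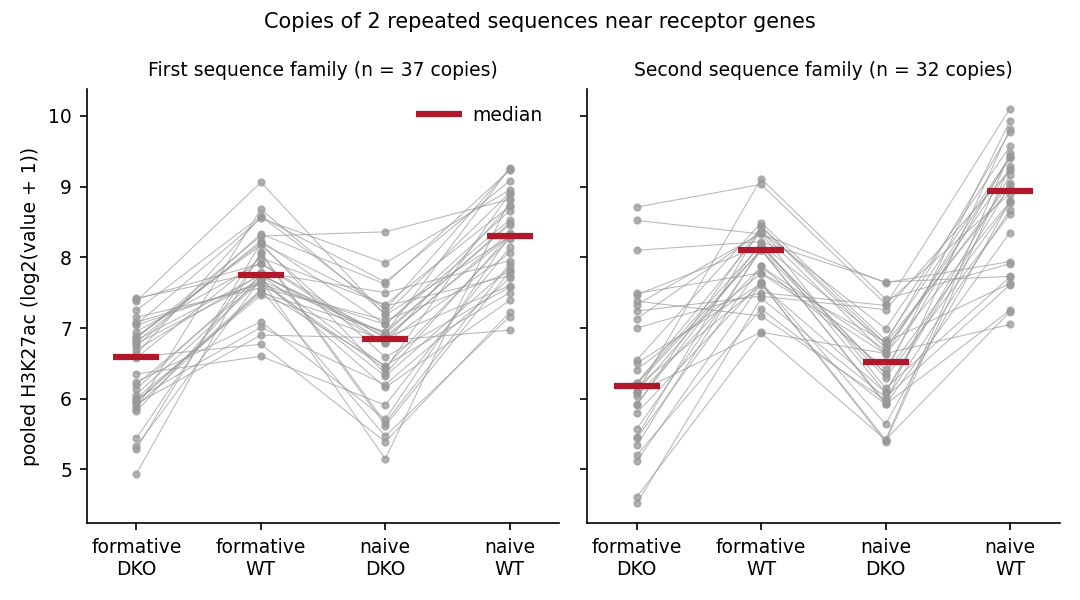
Pooled H3K27ac level, log2(value + 1), of the copies of the 2 largest sequence families in the 4 groups (grey lines join the values of 1 copy, red bars are medians). In the first family all 37 copies are lower in DKO than in WT cells in both states as deposited. This did not hold under every scaling of the groups. In the second family the naive WT median is the highest of all, 8.94.

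The next 2 families had smaller median differences in naive cells. The third family, 9 copies near 9 genes on 5 chromosomes, had H3K27ac medians of 0.23 for naive DKO over naive WT and -0.71 for formative DKO over formative WT. The fourth, 7 regions near 6 genes, had -0.26 and -1.16 in the same order, while its H3K4me1 medians in the authors' deposited table were 1.26 and 1.23. Of the first 4 families, only the third in naive cells had a median above 0, and its direction under other scalings was not computed.

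Olfr161, on chromosome 16, had 31 regions, more than any other receptor gene, and all lay 50355 to 552581 bp from its start site. By DiffBind in the authors' deposited table, 8 of the 31 rose and 7 fell. Over all regions 20.8% rose and 15.8% fell, and over other intergenic regions 20.1% and 22.4%, so the counts were near these shares. Its regions include near-identical copies, since 6 of the 14 families consist of Olfr161 regions alone. The 3 copies of one such family, at chr16:3120410-3121245, chr16:3121815-3123439 and chr16:3343605-3346802, all fell, with DiffBind log2 folds of -3.42, -1.05 and -2.05 in the authors' deposited table. In another, also joined through a wide region, the 3 regions had DiffBind log2 folds of 1.53 to 1.94 in the authors' deposited table. Of these 3, 2 rose. Leaving out Olfr161 moved little: 194 of 321 members (60.4%) were then at least 2-fold lower in formative DKO than in formative WT cells.

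The genes that serve the receptors in olfactory neurons, and those that set receptor choice, had more regions each but no common direction in WT cells. Of the 31 genes on this list, 28 had a region within 100 kb. By DiffBind in the authors' deposited table, 11 of the 28 had regions that only rose, 7 only fell, 5 both and 5 neither, and over their 190 regions 33 rose and 27 fell, where 20.8% and 15.8% of all regions did. The gene medians for formative WT over naive WT were 3.68 for Gnal, which encodes the olfactory G protein alpha subunit, 0.92 for Adcy3, the olfactory adenylyl cyclase, and -2.16 for Cnga4, a subunit of the olfactory cyclic nucleotide-gated channel. For formative DKO over formative WT, 14 of the 27 genes above 0 in all groups were lower by 2-fold or more and 1 higher, with a median of -1.16; over all genes 38.8% were lower and 7.09% higher. In naive DKO over naive WT, 9 of the 27 were lower and 3 higher by 2-fold or more, with a median of -0.10. Over all genes 20.9% were lower and 13.4% higher, with a median of -0.05. The median over the receptor genes themselves was -0.88. Lhx2, a homeodomain factor at receptor enhancers, was at -1.85 for formative DKO over formative WT, and Ebf1, a second regulator of these genes, at -1.89. Most other listed genes that set receptor choice were above 0. Ebf2 was at 1.43, Ldb1 at 0.75, Atf5 at 0.71 and Ehmt2 at 0.49. Lbr was at 0.35, Kdm1a at 0.26 and Ebf4 at 0.10, while Ehmt1 was at -0.75.

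Motif letters for such factors were rare. In the central 300 bases, on both strands, the homeodomain core TAATTA occurred in 33 of 406 members (8.13%, against 5.23% of all regions) and the octamer ATGCAAAT in 15 (3.69%, against 1.46%). The Ebf letters, TCCC and GGGA with any 2 bases between, occurred in 6 (1.48%, against 0.825%). In gene deserts the shares were 6.28% for TAATTA, 2.38% for the octamer and 0.568% for the Ebf letters. In other intergenic regions they were 5.78%, 2.06% and 0.807% in the same order. These are descriptions of the letters and not of binding.

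As a check of the labels, the naive and formative states showed at most of their own marker genes. Over 12 naive pluripotency genes the median for formative WT over naive WT was -2.62, with none higher and 10 at least 2-fold lower, and for formative DKO over naive DKO it was -1.17. Of 11 formative pluripotency names listed, 10 had a region and 9 had one above 0 in all groups; Fgf5 was not among the 9. Over these 9 genes the median for formative over naive was 1.26 in WT and 0.86 in DKO cells. In WT 5 were higher and 2 lower, and Otx2 (-1.43) and Zic5 (-2.11) went against the label. Of 10 olfactory neuron genes, 3 were lower and 4 higher by 2-fold or more in formative WT than in naive WT cells. Fibroblast genes had 14 regions at 6 of 8 genes, with a median of -1.77 for naive DKO over naive WT and -0.99 for formative DKO over formative WT; the part of any feeder cells in the DKO differences was not tested.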

How the data were processed

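H3K27ac CUT&Tag was measured in 8 libraries of 4 groups. Per the submitters' processing notes, Trim Galore, Bowtie2, SEACR, DiffBind and deepTools were used with the build mm10; the sources used here do not state their versions, roles or order, or how the regions were chosen. The deposited table gives log2 values: the authors' pooled H3K27ac level per group as log2(value + 1), DiffBind's concentration and fold for the WT libraries, and H3K4me1 and RNA folds from libraries outside this series, whose direction was read from the column names. The deposited p-values are DiffBind's, adjusted over all regions. Widths and distances in bp are those the authors deposited. A further 18 columns of values were not used. The depth per library is unknown, so no interval was computed.

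A region was called by DiffBind's adjusted p under 0.05; pooled and H3K4me1 values were counted past 1 log2 unit, with no test. Pooled counts and medians use regions above 0 in all 4 groups. The limma fit that libraries would allow could not be made on pooled columns. In WT cells the pooled level scales with width to the power -1.96 in naive and -2.0 in formative cells. Named regions were, with 1 region per gene, the 8 rises and 8 falls with the smallest adjusted p, the 4 largest pooled differences in each direction of the other comparisons among members above 0 in all 4 groups and with a concentration above the members' median, and the 6 highest concentrations, overall and within 1 kb; weaker regions with larger differences are thus mostly not named, and other examples were chosen after their values were seen. The members and lists were chosen with earlier results of these data known. Sequences are from RefSeq, GRCm38.p6. The counting steps were tested on simulated data. Python 3.11.15, pandas 2.3.3, numpy 2.4.6, pysam 0.24.0 and matplotlib 3.10.9 were used.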

Additional observations from a re-analysis of the deposited data

How the results depend on the processing

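No paired analysis was possible because the table holds 1 pooled column per group; leaving out replicates could not be run for the same reason. Of the values of the 4 comparisons under their alternatives, 113 stayed within the limits set for no change and 57 moved. Leaving out the 2 largest sequence families or Olfr161, and scaling the families, were chosen after seeing the data.

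For formative WT over naive WT the gene median, 0.33, was -0.27 with regions of at least 1 kb and 0.98 without the 2 families; it was -0.15 under median centring and under quantile normalization. The share at least 2-fold higher, 35.0%, was 42.2% scaled to the sum over all regions, 29.3% under median centring, 40.5% scaled to promoters, 29.6% under quantile normalization, 40.4% with zeros kept, 21.2% at 1 kb or wider, 42.2% at 1.5-fold, 21.9% at 4-fold and 43.3% without the families. The share lower, 26.2%, was 21.4% (sum), 35.3% (centring), 35.6% (quantile), 34.6% (width), 33.6% (1.5-fold) and 14% (4-fold). DiffBind's share that rose in the authors' deposited table, 22.7%, was 17.5% at an adjusted p under 0.01, 12.6% under 0.001, 17.9% over regions above 0 in all groups, 15.1% at 1 kb or wider and 27.3% without the families; the share that fell, 21.2%, was 15.0% under 0.001 and 32.1% at 1 kb or wider.

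For formative DKO over naive DKO the share higher, 13.1%, was 19.1% (sum), 7.69% (width), 21.9% (1.5-fold) and 5.41% (4-fold), and the share lower, 27.1%, was 20.8% (sum), 40.5% (1.5-fold) and 9.97% (4-fold). The gene median, -0.24, was 0.04 scaled to the sum.

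For naive DKO over naive WT the gene median, -0.88, was -1.46 scaled to promoters. The share higher, 12.8%, was 17.1% (sum), 7.41% (promoters), 17.0% (zeros kept), 5.77% (width), 19.1% (1.5-fold) and 5.98% (4-fold). The share lower, 44.2%, was 61.3% (promoters), 38.7% (quantile), 51.0% (width), 56.4% (1.5-fold), 22.2% (4-fold) and 34.8% (without the families).

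For formative DKO over formative WT the gene median, -1.46, was -0.83 (centring), -2.24 (promoters) and -0.67 (quantile). The share higher, 6.84%, was 12% (centring), 4.27% (promoters), 14% (quantile) and 3.13% (4-fold). The share lower, 59.5%, was 39.0% (centring), 80.9% (promoters), 37.6% (quantile), 52.9% (width), 72.4% (1.5-fold) and 30.8% (4-fold). The cause of these moves was not tested beyond what each alternative changes by construction. Scaling moved the median of all regions by up to 0.79 log2 units, for promoters in formative DKO over formative WT. Depth is unknown, and pooled values carry no replicate error.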
